A study of Mus musculus with 6 samples.

Results

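Viral restriction factors are host proteins that block steps of a virus's life cycle inside the cell or at its membrane. The set described here holds 10 mouse genes chosen by name, Ifitm1, Ifitm2, Ifitm3, Bst2, Samhd1, Adar, Ifi35, Apobec3, Isg20 and Lgals3bp, out of 23420 genes in the count table. They were followed by RNA-seq of polyadenylated RNA in bone marrow-derived mesenchymal stromal cells (MSCs), adherent fibroblast-like cells grown here from femurs of female C57BL/6 mice 6 to 8 weeks old. The study asked what expression of the thymoproteasome (TPr), a protease complex normally found in thymic epithelium, does to antigen presentation by MSCs.

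Both groups were transduced at passage 5 with the AP2 retroviral construct, which carries eGFP as a marker, so every library comes from cells that had met a retroviral vector. Ctl MSCs received the empty backbone, and MSC-TPr received the construct that codes for the subunits β1i (Psmb9), β2i (Psmb10) and β5t (Psmb11). Each group had 3 libraries, numbered 1 to 3 in the labels, and the labels name no treatment with interferon or challenge with a virus. Nothing in the sources says that the libraries of a group came from separate cultures or animals, so p-values measure only the spread between these libraries, which may be technical.

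Interferons are secreted when a cell senses foreign nucleic acid, and they act through the receptor kinases JAK1 and TYK2 and a complex of transcription factors that binds the interferon-stimulated response element (ISRE) in the promoters of target genes. Most restriction factors are such interferon-stimulated genes, although some are also kept at a high basal level in stromal and stem cells. They act at different steps. IFITM proteins hinder the fusion of virus and cell membranes, SAMHD1 lowers the pool of deoxynucleotides needed for reverse transcription, APOBEC3 deaminates cytosines in retroviral DNA, ADAR edits adenosines in double-stranded RNA, ISG20 degrades RNA, and tetherin (Bst2) holds budding virions at the cell surface.

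The libraries held 16158756 to 22158887 reads on genes, and the smallest amount taken as detectable, 3 reads, corresponded to 0.139 to 0.181 CPM (counts scaled to a common library size, here by the TMM method). Before any result, 3 facts about the libraries bear on the labels. The transduced genes were not higher in every MSC-TPr library. With values given in the order of libraries 1, 2 and 3 of each label, here and below, Psmb9 stood at 3.38, 0.801 and 0.827 CPM for Ctl MSC and at 0.554, 1.24 and 1.21 CPM for MSC-TPr, Psmb10 at 27.8, 8.81 and 8.38 against 8.97, 17.3 and 15.2 CPM, and Psmb11 at 1 to 6 reads in all libraries. Whether the construct's codons equal those of the annotated genes is not given in the sources used here, and its part in these values was not tested. Every direction given here is between libraries labelled MSC-TPr and libraries labelled Ctl MSC.

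The libraries also split across the labels by the level of 20 cell division genes. Their mean log2(CPM + 1) was 6.42, 6.30 and 6.40 in Ctl MSC 1, MSC-TPr 2 and MSC-TPr 3, and 3.23, 3.20 and 3.28 in Ctl MSC 2, Ctl MSC 3 and MSC-TPr 1. The mean of 30 core interferon-stimulated genes followed the labels instead, with 5.20, 4.01 and 3.98 for Ctl MSC against 2.53, 2.58 and 2.62 for MSC-TPr. Of 13 mesenchymal stromal markers 12 passed the filter, with Col1a1, Col1a2, Itgb1, Cd44 and Eng well expressed, while Thy1, a defining marker, had 1 read in all. Of 13 macrophage and monocyte markers 11 stayed under 1 CPM in every library, Ptprc having 2 reads in all and Emr1 none, and their summed level was 11.5 to 14.6 CPM over the Ctl MSC libraries and 13.3 to 17.6 CPM over those of MSC-TPr. Endothelial markers summed to 2.42 to 4.38 and 3.94 to 4.60 CPM, and lymphocyte and erythroid markers to at most 0.278 CPM. For this reason the members are given below in all 6 libraries, in the libraries numbered 2 and 3 alone, and with the cell division mean as a covariate. In the libraries numbered 2 and 3 the label and the level of cell division genes cannot be told apart.

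The promoter stretches of the tested members that carry the letters of the ISRE core, and of the members with the clearest differences between the labels, are shown first, because the interferon response is the route most of these genes share. All come from RefSeq on GRCm38.p6, the build also called mm10, and are written 5′ to 3′ along the gene with ISRE core letters (GAAANNGAAA, where N is any base, searched on both strands) in capitals. The stretches are chr8:71537542-71537641 for Bst2, chr7:140955962-140956061 for Ifitm2, chr7:141010715-141010744 for Ifitm3 (its first 30 transcribed bases), chr11:118401960-118402059 for Lgals3bp, all on the minus strand, and chr11:101448312-101448411 on the plus strand for Ifi35.
Bst2: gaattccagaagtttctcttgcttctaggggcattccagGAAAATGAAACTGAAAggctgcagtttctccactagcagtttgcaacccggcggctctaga
Ifitm2: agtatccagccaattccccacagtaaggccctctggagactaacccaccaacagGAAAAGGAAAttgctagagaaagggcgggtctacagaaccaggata
Ifitm3: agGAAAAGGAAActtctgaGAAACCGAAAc
Lgals3bp: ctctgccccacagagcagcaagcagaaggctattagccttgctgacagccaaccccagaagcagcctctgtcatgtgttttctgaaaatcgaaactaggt
Ifi35: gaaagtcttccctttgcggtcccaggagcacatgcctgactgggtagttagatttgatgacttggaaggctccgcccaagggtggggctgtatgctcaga

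The ISRE core letters stood in the window from 250 bases before to 50 bases after the start in 4 of the 10 members. Bst2 held 2 overlapping matches that begin at positions −130 and −124 from the start, Ifitm3 held 2 at positions 2 and 19, Ifitm2 held 1 at position −46, and Apobec3 held 1 on the other strand at position −140. Among all 27025 genes with a promoter sequence, 3.99% held at least 1 match, and among all 32851 promoters 3.44% did. The letters of the interferon gamma-activated site (GAS, TTCNNNGAA) were found in Bst2, Ifitm3, Samhd1, Ifi35, 1 of 3 Adar promoters and 1 of 3 Isg20 promoters, against 9.55% of all genes. In Bst2 and in Ifitm3 the GAS letters share bases with an ISRE match. Neither set of letters was found in the windows of Ifitm1 and Lgals3bp, which says only that these letters are not there. A match is a run of letters and not a measured binding site.

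**Figure D1:**
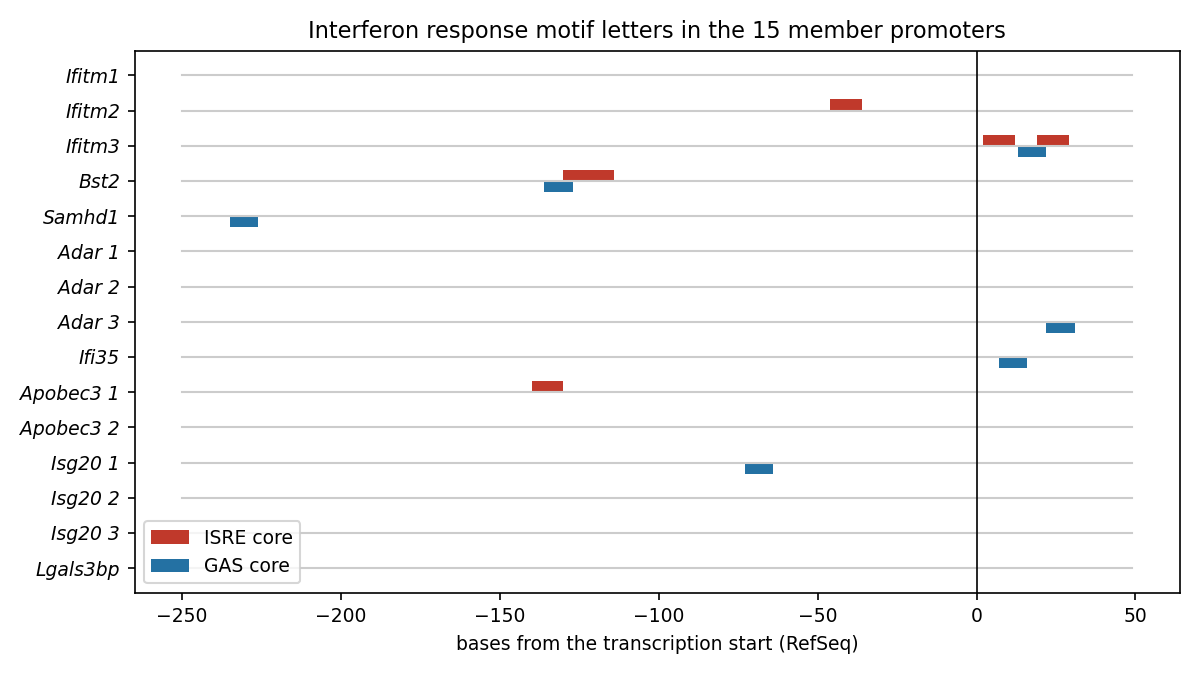
Positions of ISRE core (red) and GAS core (blue) letters in the 15 RefSeq promoter sequences of the 10 members, in bases from the transcription start at 0. Matches to the ISRE core lie in Ifitm2, Ifitm3, Bst2 and 1 of the Apobec3 promoters, and Ifitm1 and Lgals3bp hold neither.

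Levels per exon length set the members apart before any comparison of labels. Exon length was that of all annotated exons of a gene merged, from 655 bases for Ifitm2 to 9454 for Apobec3. In CPM alone Samhd1 (mean 86.7) stood above Ifitm2 (82.6), so the order below depends on these lengths. On the scale of CPM per kilobase of exon (RPKM), Ifitm3 averaged 230.2 ± 85.0 (SD over the 6 libraries), Ifitm2 126 ± 33.0, Bst2 119 ± 72.0 and Lgals3bp 65.4 ± 38.9. These 4 stood at or above the 95.8th percentile of the 15676 genes detected with a known exon length. A middle group followed with Isg20 at 13.4 ± 3.70, Ifi35 at 12.1 ± 7.48, Samhd1 at 9.47 ± 3.34 and Adar at 6.53 ± 1.54 RPKM, at the 63.6th to 77.5th percentile. Along this order Ifitm3 stood above Ifitm2, and Lgals3bp above Isg20, by more than the SD of either gene, while every other pair of neighbours among the 8 differed by less than the larger of its SDs. Ifitm1 and Apobec3 were at or near the limit of detection, with 0.0711 and 0.0251 RPKM. Thus the polyadenylated RNA of these MSCs held high levels of Ifitm2 and Ifitm3 but hardly any of their neighbour Ifitm1, although the 3 genes lie close together on chromosome 7.

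**Figure D2:**
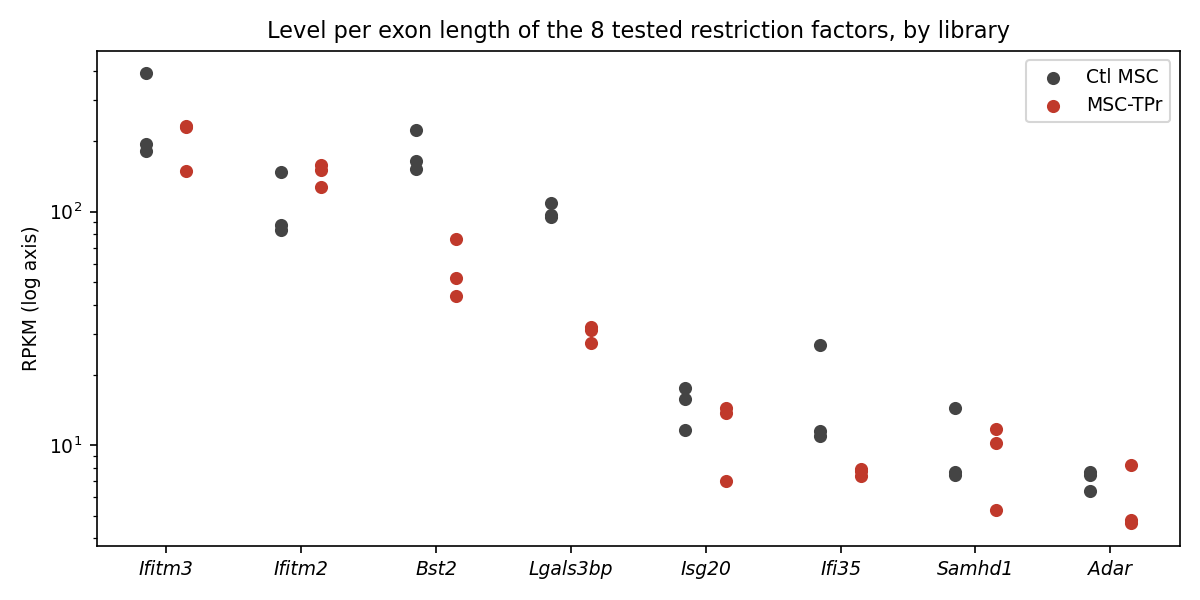
RPKM of the 8 tested members in each of the 6 libraries, on a log axis, ordered by their mean (dark points Ctl MSC, red points MSC-TPr). Ifitm3, Ifitm2, Bst2 and Lgals3bp lie above the other 4 members in every library, and the dark and red points are apart in Bst2, Lgals3bp and Ifi35.

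Over all 6 libraries, 8 of the 10 members had enough reads to be tested, and 1 of them, Lgals3bp, fell in libraries labelled MSC-TPr while none rose. Genes were called at an adjusted p under 0.05 where the log2 fold change also reached 0.5 in either direction. Among all 11974 genes tested 0.401% were called lower and 0.0251% higher. At an unadjusted p under 0.05, 3 of the 8 members were lower and 0 higher, against 8.23% and 6.81% of all genes, and DESeq2 also called 0 members higher, against 1.89% of all genes. Groups did not overlap, with every MSC-TPr library below every Ctl MSC library, in 3 of the 8 members, Lgals3bp, Bst2 and Ifi35, against 12.1% of all genes tested. No member had all its MSC-TPr libraries above all its Ctl MSC libraries, against 10.6% of all genes, so that 22.6% of all genes had groups apart in either direction. The median log2 fold change of the 8 members was −0.34, and that of all genes tested was 0.01.

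Lgals3bp codes for a secreted glycoprotein that binds galectins and is reported to interfere with retroviral particles. It lies on chromosome 11 (118392751 to 118402092, minus strand, mm10). Its levels were 311, 271 and 277 CPM for Ctl MSC and 88.5, 77.8 and 91.4 CPM for MSC-TPr. All 3 MSC-TPr libraries were far below all 3 Ctl MSC libraries, and the spread within each group was small beside the gap. The mean fell from 286 ± 21.7 to 85.9 ± 7.13 CPM (SD, n = 3 each), a 3.33-fold lower level, with a log2 fold change of −1.74 (SE 0.147, 95% confidence interval −2.09 to −1.38, edgeR's quasi-likelihood test with Benjamini-Hochberg adjusted p = 0.0127). It fell as well in the libraries numbered 2 and 3 (−1.69) and with the cell division covariate (−1.75). Label and cell division level cannot be told apart in the former. The size of the difference stayed between −1.78 and −1.67 when each library was left out. The call itself was lost without Ctl MSC 2, Ctl MSC 3, MSC-TPr 2 or MSC-TPr 3, with edgeR quasi-likelihood adjusted p (Benjamini-Hochberg) of 0.0890, 0.0997, 0.122 and 0.0996, in fits that called at most 1 gene of all tested.

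Bst2 codes for tetherin, the membrane protein that ties newly budded enveloped virions to the cell, and lies on chromosome 8 (71534255 to 71537456, minus strand). It was measured at 201, 137 and 149 CPM for Ctl MSC and 68.9, 47.1 and 39.5 CPM for MSC-TPr. The groups did not overlap, and the lowest Ctl MSC library was well above the highest MSC-TPr library. The means were 163 ± 34.0 and 51.8 ± 15.3 CPM, with a log2 fold change of −1.65 (SE 0.266, 95% confidence interval −2.29 to −1.01), which missed the threshold over all 6 libraries (edgeR's quasi-likelihood test, Benjamini-Hochberg adjusted p = 0.0739). DESeq2 called the same difference lower (−1.63, adjusted p = 2.40e-05), as did edgeR in the libraries numbered 2 and 3 (−1.72, quasi-likelihood test, Benjamini-Hochberg adjusted p = 0.000444) and with the cell division covariate (−1.64, adjusted p = 0.00611). Label and cell division level cannot be told apart in the libraries numbered 2 and 3, where 19.4% of all genes were called lower. Leaving out each library gave −1.91 to −1.46.

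Ifi35 codes for an interferon-induced leucine zipper protein that pairs with NMI and is found in the cytoplasm, and lies on chromosome 11 (101448407 to 101458698, plus strand). Its levels were 46.5, 20.0 and 19.0 CPM for Ctl MSC and 12.7, 13.6 and 13.4 CPM for MSC-TPr. The MSC-TPr libraries were close to each other and below all Ctl MSC libraries, while Ctl MSC 1 stood far above the other 2. The log2 fold change of −1.10 (SE 0.377, 95% confidence interval −2.01 to −0.20) did not pass over all 6 libraries (edgeR quasi-likelihood, Benjamini-Hochberg adjusted p = 0.255). It was −0.53 without library 1 of each group and −1.22 with the covariate, and both passed (edgeR quasi-likelihood, Benjamini-Hochberg adjusted p = 0.0220 and 0.0176). Without library 1 of each group, label and cell division level cannot be told apart. On the opposite strand, the exons of Gm11626, which is not among the genes counted, overlap 290 bases of Ifi35. The strand setting of the counting is not given in the sources used here.

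**Figure D3:**
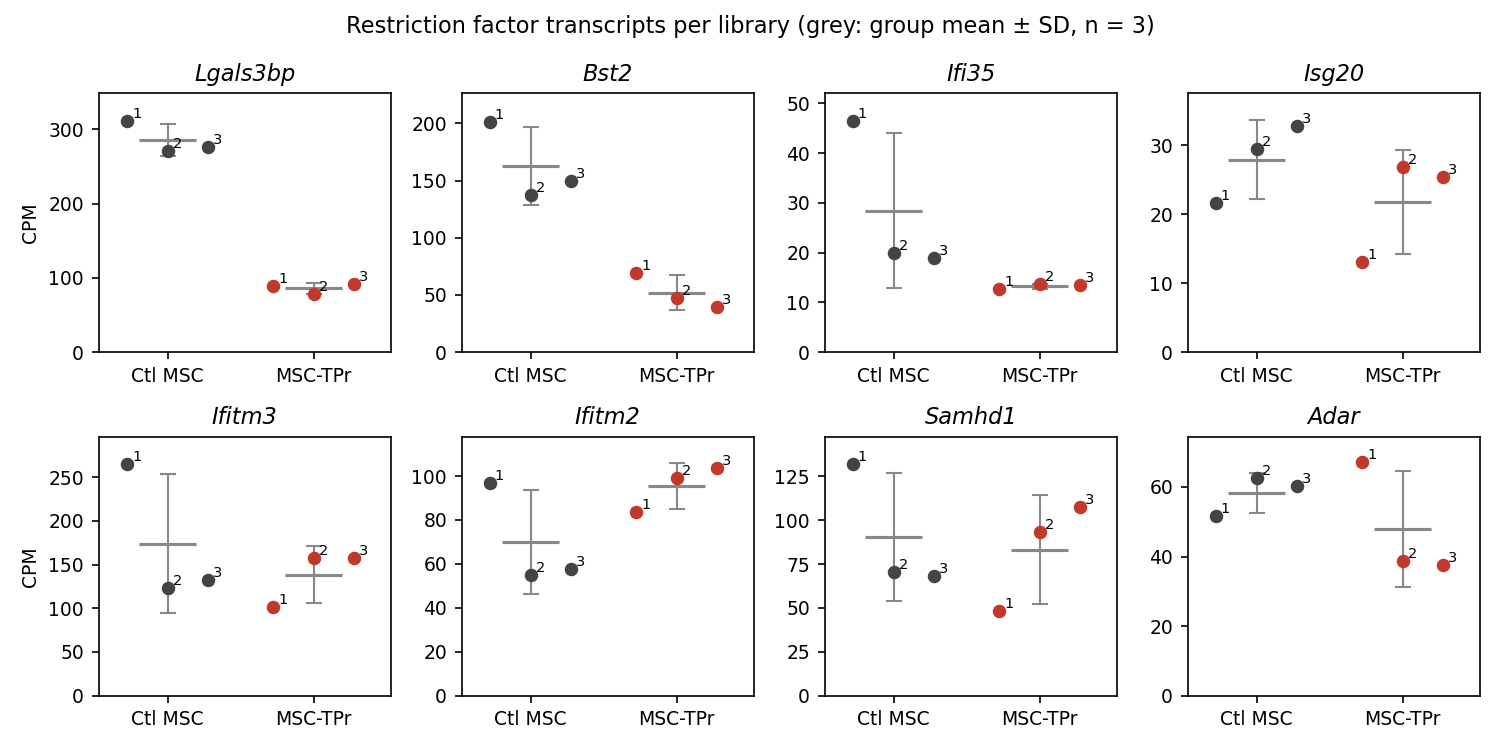
CPM of the 8 tested members in each library, numbered by replicate, with the group mean ± SD (n = 3) in grey and axes starting at 0. The MSC-TPr points lie below all Ctl MSC points in Lgals3bp, Bst2 and Ifi35, and the groups overlap in the other 5 members.

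The IFITM genes code for small membrane proteins that restrict viral entry, IFITM3 in endosomes and IFITM1 more at the cell surface. Ifitm3 (chromosome 7, 141009586 to 141010770, minus strand) stood at 265, 123 and 132 CPM for Ctl MSC and at 101, 157 and 157 CPM for MSC-TPr. Ctl MSC 1 was the highest and MSC-TPr 1 the lowest, and the groups overlapped. All 3 libraries rich in cell division genes stood above all 3 poor in them, whatever their label. The log2 fold change was −0.33 (SE 0.348, 95% confidence interval −1.16 to 0.51, edgeR quasi-likelihood, Benjamini-Hochberg adjusted p = 0.712). Its sign turned to 0.30 in the libraries numbered 2 and 3 and to 0.12 without Ctl MSC 1, whereas the covariate gave −0.55 (edgeR quasi-likelihood, Benjamini-Hochberg adjusted p = 0.0336).

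Ifitm2 (chromosome 7, 140954837 to 140955987, minus strand) stood at 97.0, 54.7 and 57.5 CPM for Ctl MSC and at 83.7, 99.3 and 104 CPM for MSC-TPr. Only Ctl MSC 1 reached into the range of the MSC-TPr libraries. All 3 libraries rich in cell division genes stood above all 3 poor in them. Ifitm2 was the 1 member of the 8 with a fold change above 0, at 0.45 (SE 0.255, 95% confidence interval −0.16 to 1.07, edgeR quasi-likelihood, Benjamini-Hochberg adjusted p = 0.458). It passed at 0.86 (edgeR quasi-likelihood, Benjamini-Hochberg adjusted p = 0.00224) in the libraries numbered 2 and 3, where label and cell division level cannot be told apart. With the cell division covariate its log2 fold change was 0.32 and did not pass (edgeR quasi-likelihood, Benjamini-Hochberg adjusted p = 0.156). Of the 100-base stretches of its exons 34.9% also occur in other genes, 30.4% in Gm45717, a gene that overlaps it on the same strand. Gm45717 is not among the genes counted, and how the shared sequence bears on the count of Ifitm2 was not tested. Ifitm1 (chromosome 7, 140967221 to 140969825, plus strand) had 5, 0 and 0 reads for Ctl MSC and 0, 2 and 1 reads for MSC-TPr, too few for a test. A count of 0 allows levels of up to 0.160, 0.165 and 0.166 CPM for Ctl MSC 2, Ctl MSC 3 and MSC-TPr 1, by counting error only.

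Samhd1 and Apobec3 code for the members that act on reverse transcription. Samhd1 (chromosome 2, 157097533 to 157135265, minus strand), the deoxynucleotide triphosphohydrolase, stood at 132, 70.6 and 68.0 CPM for Ctl MSC and at 48.2, 93.2 and 108 CPM for MSC-TPr. The groups overlapped almost fully, with means of 90.3 ± 36.4 and 83.1 ± 31.0 CPM. All 3 libraries rich in cell division genes stood above all 3 poor in them, whatever their label. Ctl MSC 1 was the highest of the rich ones, and MSC-TPr 1 the lowest of the poor ones. The log2 fold change was −0.12 (SE 0.385, 95% confidence interval −1.04 to 0.80, edgeR quasi-likelihood, Benjamini-Hochberg adjusted p = 0.910). Its sign turned with the libraries used, to 0.54 in those numbered 2 and 3 (edgeR quasi-likelihood, Benjamini-Hochberg adjusted p = 0.0156), to 0.26 without Ctl MSC 1 and to 0.16 without MSC-TPr 1, and with the covariate it was −0.46 (edgeR quasi-likelihood, Benjamini-Hochberg adjusted p = 0.0456), under the fold threshold. The adjusted p was thus under 0.05 with opposite signs in the libraries numbered 2 and 3 and with the covariate. Label and cell division level cannot be told apart in the former. Apobec3 (chromosome 15, 79891659 to 79915906, plus strand) had 11, 2 and 4 reads for Ctl MSC and 1, 4 and 3 for MSC-TPr, which was too few for a test, and its exons overlap those of D730005E14Rik on the same strand and of Cbx7 on the other.

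Adar and Isg20 code for the members that act on RNA. Adar (chromosome 3, 89715022 to 89753446, plus strand) stood at 51.7, 62.4 and 60.4 CPM for Ctl MSC and at 67.0, 38.7 and 37.7 CPM for MSC-TPr. MSC-TPr 1 was the highest of all 6 and the other 2 MSC-TPr libraries the lowest. All 3 libraries poor in cell division genes stood above all 3 rich in them, whatever their label. The log2 fold change was −0.28 (SE 0.259, 95% confidence interval −0.90 to 0.34, edgeR quasi-likelihood, Benjamini-Hochberg adjusted p = 0.657), and it passed at −0.68 in the libraries numbered 2 and 3 (edgeR quasi-likelihood, Benjamini-Hochberg adjusted p = 0.00483). In those libraries the label and the level of cell division genes cannot be told apart. With the covariate the log2 fold change was −0.15 and did not pass (edgeR quasi-likelihood, Benjamini-Hochberg adjusted p = 0.512). Chrnb2 overlaps 1365 exon bases of Adar on the opposite strand, but had only 1 to 21 reads in any library.

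Isg20 (chromosome 7, 78913424 to 78920396, plus strand), an exonuclease induced by interferon, stood at 21.6, 29.4 and 32.8 CPM for Ctl MSC and at 13.1, 26.9 and 25.5 CPM for MSC-TPr. MSC-TPr 1 was the lowest, and the other 2 MSC-TPr libraries lay within the range of the Ctl MSC libraries. The log2 fold change of −0.36 (SE 0.320, 95% confidence interval −1.12 to 0.41) passed in none of the 3 edgeR fits (quasi-likelihood test, Benjamini-Hochberg adjusted p = 0.650, 0.153 and 0.359 over all libraries, over libraries 2 and 3 and with the covariate).

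Counted over the set, the libraries numbered 2 and 3 called 4 members lower, Lgals3bp, Bst2, Adar and Ifi35, against 19.4% of all genes, and 2 higher, Ifitm2 and Samhd1, against 20.6% of all genes. With the cell division covariate 4 members were lower, Lgals3bp, Bst2, Ifi35 and Ifitm3, against 7.38% of all genes, and none was higher, against 4.77% of all genes. DESeq2 over all 6 libraries called Lgals3bp and Bst2 lower, against 3.39% of all genes. Lgals3bp was thus called lower in libraries labelled MSC-TPr in all 3 edgeR fits. Bst2 and Ifi35 were below 0 in all 3 fits and were called in 2 of them. Adar and Isg20 were also below 0 in all 3, Adar being called only in the libraries numbered 2 and 3 and Isg20 in none. Ifitm3 and Samhd1 changed sign between the fits. The part of the cell division level in these differences was not tested beyond the covariate.

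**Figure D4:**
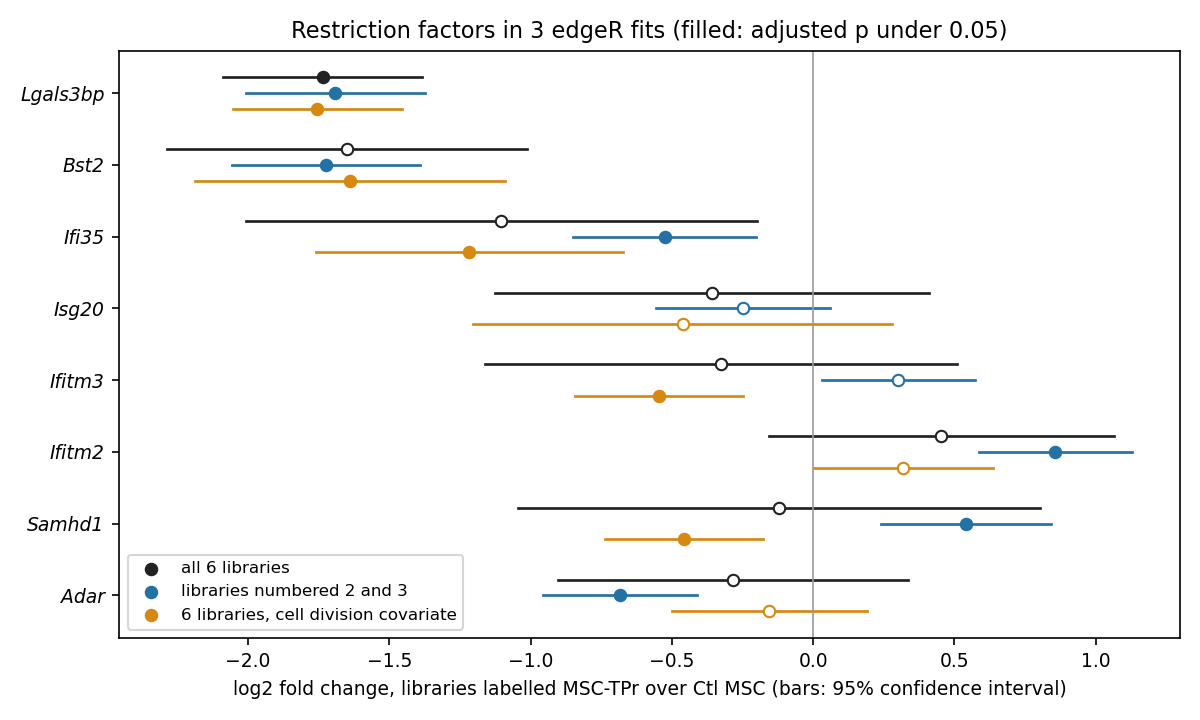
Log2 fold changes of the 8 tested members, libraries labelled MSC-TPr over Ctl MSC, in 3 edgeR fits, with bars for the 95% confidence interval and filled points for an adjusted p under 0.05. Lgals3bp and Bst2 lie between −1.75 and −1.64 in all 3 fits. Ifi35, Adar and Isg20 also lie below 0 in all 3, while Ifitm3 and Samhd1 lie on both sides of 0.

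The other genes of the interferon response place these values. Of 30 core interferon-stimulated genes, all of which were tested, 3 fell and none rose over all 6 libraries, with a median log2 fold change of −2.45. Those called were Ifi44 (69.2, 41.0 and 43.2 CPM for Ctl MSC against 4.04, 4.02 and 2.37 for MSC-TPr), Oasl2, a relative of the oligoadenylate synthetases, and Usp18, the protease that removes ISG15 from proteins. Their log2 fold changes were −3.88, −3.59 and −3.49, each more than that of any member (edgeR quasi-likelihood, Benjamini-Hochberg adjusted p = 0.0142, 0.0307 and 0.0485). All 30 fold changes were below 0 and 27 genes had groups that did not overlap, with the MSC-TPr libraries lower, against 12.1% of all genes. DESeq2 called 25 of them lower, against 3.39% of all genes, and the covariate fit called all 30 lower, against 7.38%. The libraries numbered 2 and 3 called 26 lower and 1 higher, against 19.4% and 20.6% of all genes. The median of the members, −0.34, lay closer to 0 than that of the core genes, and this contrast between the lists was not tested.

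Among 35 further restriction factors, 31 were tested and 1 fell over all 6 libraries, Rsad2, which codes for viperin, an enzyme that makes a chain-terminating nucleotide. It stood at 22.0, 13.9 and 13.1 CPM for Ctl MSC and at 2.60, 3.43 and 3.39 CPM for MSC-TPr, with a log2 fold change of −2.38 (SE 0.292, edgeR quasi-likelihood, Benjamini-Hochberg adjusted p = 0.0352). Groups did not overlap in 17 of the 31, all with the MSC-TPr libraries lower, against 12.1% of all genes, and the list's median was −0.86. The libraries numbered 2 and 3 called 16 of this list lower and 2 higher, against 19.4% and 20.6% of all genes, the covariate fit called 19 lower, against 7.38%, and DESeq2 called 14 lower, against 3.39%. Of the most abundant of this list, Serinc3 (−0.06), Trim28 (0.14), Zc3hav1 (−0.01) and March8 (−0.13), the groups overlapped in every case.

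Of 22 genes for interferons, their receptors and signalling, 17 were tested, and edgeR called none in either direction over all 6 libraries, with a median of −0.17. Groups were apart in 6 with MSC-TPr lower and 2 with MSC-TPr higher, against 12.1% and 10.6% of all genes. At an unadjusted p under 0.05, 5 were lower and 0 higher, against 8.23% and 6.81% of all genes. DESeq2 called 4 lower and 0 higher, against 3.39% and 1.89%. The libraries numbered 2 and 3 called 6 lower and 1 higher, against 19.4% and 20.6% of all genes, and the covariate fit called 6 lower, against 7.38%. The summed level of the 22 genes was 831 to 934 CPM over the Ctl MSC libraries and 655 to 727 CPM over those of MSC-TPr. Jak1 and Jak2, receptor kinases, had log2 fold changes of −0.14 and −0.11. Ifnar1, the type I receptor chain, stood at 59.8, 80.4 and 76.0 CPM for Ctl MSC and at 54.9, 41.3 and 56.3 CPM for MSC-TPr, a log2 fold change of −0.50 with groups apart that did not pass (edgeR quasi-likelihood, Benjamini-Hochberg adjusted p = 0.297). Ifnb1, the gene of interferon beta, had at most 1 read in any library, so a difference in it was not detectable at this depth.

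Relatives by family and by substrate gave no call by edgeR over all 6 libraries, and genes such as Ddx58, Lgals9, Cdk1 and Ccna2 belong to more than 1 list. The counts below stand beside these shares of all genes, lower and higher. They were 12.1% and 10.6% for groups apart, 8.23% and 6.81% at an unadjusted p under 0.05, and 3.39% and 1.89% by DESeq2. The libraries numbered 2 and 3 called 19.4% and 20.6%, and the covariate fit 7.38% and 4.77%. Of 17 family relatives 10 were tested, with a median log2 fold change of −0.0005, and 1 had MSC-TPr libraries all lower and 2 all higher. At an unadjusted p under 0.05, 1 relative was lower and 0 higher, and DESeq2 called 0, while the libraries numbered 2 and 3 called 2 lower and 3 higher and the covariate fit 2 lower. Lgals1 and Lgals3, galectins of the kind that LGALS3BP binds, had log2 fold changes of 0.42 and −0.09, and Lgals8 had −1.11, with 142, 228 and 227 CPM for Ctl MSC and 141, 72.3 and 62.6 CPM for MSC-TPr. Of 14 genes for deoxynucleotide synthesis and the kinases that phosphorylate SAMHD1, the median was 0.39, and Rrm1, Rrm2, Dut and Cdk1 were high in the 3 libraries rich in cell division genes whatever their label. In that list 1 gene was lower and 0 higher at an unadjusted p under 0.05, and DESeq2 called 0, while the libraries numbered 2 and 3 called 2 lower and 10 higher and the covariate fit 1 lower. Of 9 genes for sensing the double-stranded RNA that ADAR edits, the median was −0.63, with Ddx58, the RIG-I sensor, at 117, 60.0 and 59.2 CPM for Ctl MSC and 17.3, 15.6 and 21.8 CPM for MSC-TPr, and Mavs, its adaptor, at 38.5, 39.1 and 37.4 against 55.9, 51.6 and 51.1 CPM. In that list 2 genes were lower and 1 higher at an unadjusted p under 0.05, DESeq2 called 1 lower, the libraries numbered 2 and 3 called 1 lower and 1 higher, and the covariate fit called 5 lower. Neither Ddx58 nor Mavs passed over all 6 libraries (edgeR quasi-likelihood, Benjamini-Hochberg adjusted p = 0.0697 and 0.203).

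**Figure D5:**
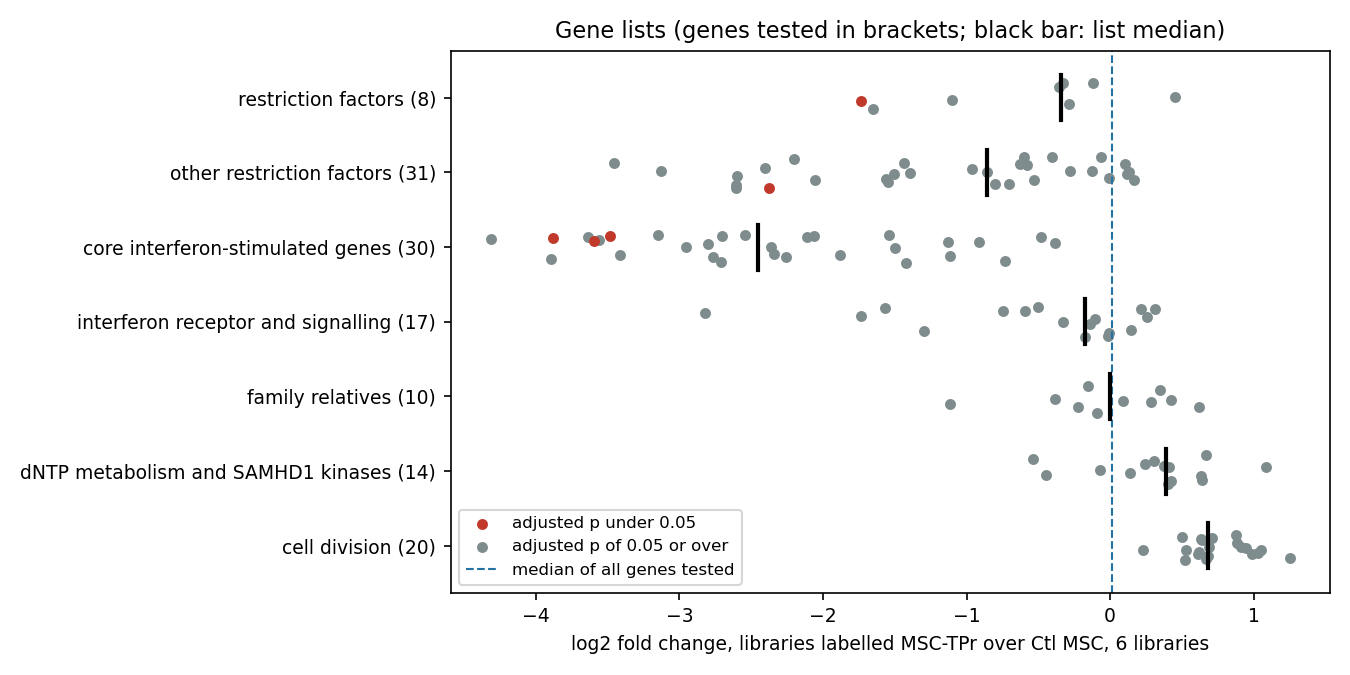
Log2 fold changes of the tested genes of each list over all 6 libraries, with red points for an adjusted p under 0.05, a black bar for the list's median and a dashed line for the median of all genes tested. Core interferon-stimulated genes lie lowest with a median of −2.45, and the 8 tested restriction factors spread from −1.74 to 0.45.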

How the data were processed

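RNA was extracted with Trizol and RNeasy columns, and stranded libraries of polyadenylated RNA were sequenced from both ends. The submitters' processing notes name CASAVA 1.8.2, Trimmomatic 0.35, TopHat2 2.1.0 and mm10. The authors deposited raw counts of reads per gene from Htseq-count in 1 table, without normalization. The strand setting and annotation release are not given in the sources used here. The 5 rows that name no gene (6.86% to 10.9% of reads without a feature, 0.939% to 1.09% ambiguous, 5.89% to 8.92% not unique) were left out.

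From these counts, edgeR 4.0.16 in R 4.3.3 (TMM, filterByExpr, quasi-likelihood test, Benjamini-Hochberg over all genes tested) compared 3 libraries labelled MSC-TPr with 3 labelled Ctl MSC. Every adjusted p comes from that fit or its named alternatives, among them DESeq2 1.42.0. The scripts were tested on simulated data. Exon lengths, positions and overlaps came from GENCODE M21 on GRCm38, in which 21740 of 23420 symbols matched 1 gene. Promoter sequences came from RefSeq. No library was a copy of another, Ctl MSC 2 and 3 being the closest with a chi-square of 4.98 per gene. Members and gene lists were chosen with earlier results of these data known. Named genes were all members, the genes called in each list or else up to 4 with the highest mean CPM, the transduced genes and genes whose exons overlap a member. Marker genes, Serinc3, Trim28, Zc3hav1, March8, Ifnb1, Lgals9 and Ccna2 were named in addition. In bulk RNA, fewer cells with a transcript and less of it per cell cannot be told apart.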

Additional observations from a re-analysis of the deposited data

How the results depend on the processing

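Without a fold threshold, without the filter on low counts, and with RLE or upper quartile scaling, Lgals3bp was the 1 member called lower and none was called higher. A filter of at least 10 reads in every library left 29 genes lower in all. DESeq2 called 2 members lower, and 439 genes lower and 244 higher in all. The libraries numbered 2 and 3 called 4 members lower and 2 higher, and 2356 genes lower and 2498 higher in all, with a common dispersion of 0.0168 against 0.124 over all 6 libraries. The cell division covariate gave 4 members lower, 884 genes lower and 571 higher. Ifitm3 reversed to 0.30 in libraries 2 and 3 and to 0.12 without Ctl MSC 1, and Samhd1 to 0.54 in libraries 2 and 3, 0.26 without Ctl MSC 1 and 0.16 without MSC-TPr 1. Over the leave-one-out fits, Ifitm3 ranged from −0.52 to 0.12 and Samhd1 from −0.34 to 0.26, members called lower ranged from 0 to 1, genes called lower from 0 to 105 and genes called higher from 0 to 11. The highest counts came without Ctl MSC 1 and without MSC-TPr 1, and the fits without Ctl MSC 2, Ctl MSC 3, MSC-TPr 2 or MSC-TPr 3 called 0 or 1 gene. Over 14 list counts, 42 alternative values moved, 35 of them in counts of genes called lower. The causes were not tested.

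In libraries of equal number the deviations from the group means correlated at −0.78, −0.64 and −0.62. Of the unequal numbers, Ctl MSC 3 with MSC-TPr 2 gave −0.61 and Ctl MSC 2 with MSC-TPr 3 gave −0.58, and the rest gave 0.63 to 0.75. These signs follow the split by cell division genes, so they cannot show whether equal numbers share a culture or batch. With the replicate block 0 members and 0 genes were called by edgeR in either direction, against 2 members lower and 0 higher, and 525 genes lower and 251 higher, at an unadjusted p under 0.05, with Lgals3bp at −1.74 (edgeR quasi-likelihood, Benjamini-Hochberg adjusted p = 0.309). Depth limits Ifitm1 and Apobec3, which could not be compared.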

Other observations

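The ratio of Ifitm2 to Ifitm3, which hold the same run of ISRE core letters, did not overlap between the labels, whereas the levels of each gene did. In CPM, in the order of libraries 1 to 3, it was 0.366, 0.445 and 0.434 for Ctl MSC and 0.826, 0.631 and 0.660 for MSC-TPr, with means of 0.415 ± 0.0430 and 0.706 ± 0.105 (SD, n = 3 each). The ratio was higher in 3 of 3 MSC-TPr libraries than in any Ctl MSC library (exact permutation test, two-sided, p = 0.1, the smallest that 3 against 3 allows). It was chosen after the values were seen, as 1 of 28 pairs of members, of which 14 did not overlap between the labels. Groups of 3 that do not overlap always give this p, so the test only restates how the ratio was chosen. Of the 10 pairs without Lgals3bp, Bst2 and Ifi35, 2 did not overlap, the other being Ifitm2 to Samhd1, so both hold Ifitm2. Among single genes tested 22.6% had groups apart in either direction, so this count is near that share and is given as a description. The share for ratios of genes is not given here. The count of Ifitm2 shares sequence with Gm45717.

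Ifitm6, a further member of the IFITM family, followed the cell division split and not the labels. It stood at 4.75, 5.07 and 8.03 CPM in Ctl MSC 2, Ctl MSC 3 and MSC-TPr 1, the libraries poor in cell division genes, and at 0.423, 0.651 and 0.557 CPM in Ctl MSC 1, MSC-TPr 2 and MSC-TPr 3. This gene was chosen after its values were seen. The split was not particular to it. Among the tested members, Adar was also higher in all libraries poor in cell division genes. Ifitm2, Ifitm3 and Samhd1 were higher in all libraries rich in them. The share of all genes split in this way is not given here.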
